A study of Ovis aries with 15 samples.

Results

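Receptors for steroid hormones, thyroid hormone, vitamin D and insulin were followed through the last part of fetal life and the first months after birth in the longissimus dorsi, the long muscle of the back, of sheep. The set held 7 genes, chosen by name: ESR1, PGR, NR3C1, THRA, THRB, VDR and INSR. Every probe set (a group of short probes that reads 1 transcript) annotated with a member as its only gene symbol was taken, whatever its signal, which gave 10 probe sets for 5 of the 7 genes, among 24016 probe sets on the array once controls were removed. No probe set carried THRB or VDR as its only symbol, and these were not analysed here. Of the 10 probe sets, 7 passed a filter on low signal (50 or more on at least 3 arrays), which 15998 of all probe sets passed. The filter did not use the stages, but a probe set that is bright at only 1 stage can pass through that stage.

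The muscle came from a Dorset, Suffolk and Rambouillet cross-bred research flock at 5 stages, named by days of development: fetuses at 80 d, 100 d and 120 d, newborn lambs at 150 d and young lambs at 230 d. Different animals were used at each stage, 3 per stage, with 1 array per animal (15 arrays). All were male except 1 female at 100 d and 1 at 120 d, and the labels do not say which arrays these were, so the part of sex in any value was not tested. RNA of sheep was hybridised to a bovine genome array. How well each bovine probe pairs with the sheep transcript was not tested. Signals of different probe sets are therefore not read as relative amounts of their transcripts, and sums over marker genes weigh the brighter probe sets more.

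Hormone receptors translate signals in the blood into changes in the cell. The nuclear receptors ESR1 (estrogen), PGR (progesterone), NR3C1 (glucocorticoid) and THRA, THRB and VDR (thyroid hormone and vitamin D) are transcription factors that bind their hormone inside the cell and act on target genes together with coactivators and corepressors, and the steroid receptors among them are held ready for the hormone by HSP90 chaperone complexes. INSR is a tyrosine kinase in the cell membrane, which on binding insulin starts the signalling through AKT that governs glucose uptake and protein synthesis in muscle. In fetal sheep, cortisol and thyroid hormone in the circulation rise towards birth and are known for their role in the maturation of many tissues.

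Across birth, 2 of the 5 measured receptor genes passed the test, in opposite directions: ESR1 was higher in the postnatal stages and THRA was lower. That is 2 of 7 kept probe sets (28.6%), where 34.5% of all kept probe sets passed, so the share by probe set is near that of the whole array. With 1 probe set per gene it is 2 of 4 kept genes (50%). NR3C1, the glucocorticoid receptor, had its highest mean in the later fetal stages, but no comparison of it passed after adjustment. Signals under 50 are treated here as near background. PGR was under 50 on 13 of 15 arrays, and 1 of the 5 INSR probe sets reached 50 on 10 arrays, as many as ESR1, while the others were mostly under it.

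The estrogen receptor ESR1 is the main mediator of estrogen action. Its signal was 35.4, 35.5 and 47.8 at 80 d, 66.1, 31.4 and 57.3 at 100 d, 62.3, 63.9 and 35.1 at 120 d, 74.3, 58.0 and 111.9 at 150 d, and 101.8, 154.2 and 107.8 at 230 d. Every array at 80 d was under 50, as was 1 array at each of 100 d and 120 d, whereas all postnatal arrays were above it. The stage means were 39.6 ± 7.13, 51.6 ± 18.0, 53.8 ± 16.2, 81.4 ± 27.6 and 121 ± 28.7 (SD, n = 3 each), in the order of age. Each stage overlapped the next one in this order, so no neighbouring pair differed beyond the spread of its arrays.

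Taken as postnatal against fetal, the ESR1 signal was 101 ± 33.3 in the postnatal muscles (n = 6) and 48.3 ± 14.3 in the fetal muscles (n = 9, SD). Of the 6 postnatal arrays, 5 lay above the highest fetal array, and the groups overlapped through 1 newborn. The log2 fold change was 1.06 (standard error 0.22, 95% interval 0.58 to 1.54, limma, adjusted p = 0.0017). The fetal geometric mean, 46.4, was itself under 50, so no exact fold is given. The postnatal geometric mean, 96.7, was 1.93 times a signal of 50, but 4 fetal arrays also reached 50. The single steps were not called: the log2 fold change was 0.60 for 150 d against 120 d (adjusted p = 0.25) and 0.60 for 230 d against 150 d (adjusted p = 0.32). These steps rest on single arrays: the first was 0.31 without 120 d replicate 3, 0.34 without 150 d replicate 3 and 0.39 with the 100 brightest probe sets left out of the scaling, and the second was 0.39 without 150 d replicate 2. The call for postnatal against fetal also depended on both ends of the age range. It was lost without the 80 d stage (log2 fold change 0.94, adjusted p = 0.015) and with 150 d alone against the fetal stages (0.76, adjusted p = 0.05).

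The thyroid hormone receptor alpha gene THRA codes for the receptor form known to predominate in skeletal muscle of other mammals. Its signal was 1366.4, 1261.5 and 1224.1 at 80 d, 1504.5, 1545.8 and 1413.7 at 100 d, 1290.4, 1185.6 and 1651.7 at 120 d, 758.5, 774.1 and 1037.3 at 150 d, and 834.1, 1044.6 and 978.2 at 230 d. All 6 postnatal arrays lay below all 9 fetal arrays. Such a separation in the lower direction was found for 10.5% of all kept probe sets, and in either direction for 17.3%. From the highest, the stage means ran 100 d (1488 ± 67.6), 120 d (1376 ± 245), 80 d (1284 ± 73.8), 230 d (952 ± 108) and 150 d (857 ± 157, SD, n = 3 each). In this order only the step between 80 d and 230 d had no overlap of its arrays.

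The THRA signal averaged 904 ± 131 in postnatal muscles (n = 6) and 1383 ± 159 in fetal muscles (n = 9, SD), a log2 fold change of -0.62 (standard error 0.12, 95% interval -0.88 to -0.36, limma, adjusted p = 0.001), or 0.652 of the fetal level. A difference of similar size lay between the newborn and the last fetal stage: 150 d against 120 d gave -0.68 (standard error 0.19, unadjusted p = 0.0029), which missed the threshold of 0.01 after adjustment (adjusted p = 0.019). No difference was detected between the 2 postnatal stages (log2 fold change 0.16 for 230 d against 150 d, 95% interval -0.24 to 0.57). With 230 d alone against the fetal stages the call was lost (-0.54, adjusted p = 0.013).

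In the sheep annotation, THRA overlaps NR1D1, a repressor of the circadian clock that is transcribed in the opposite direction in mammals, and mammals make an alternative THRA transcript that does not bind the hormone. Which THRA transcript the probe set reads is not annotated. The NR1D1 probe set, named after its values were seen, moved the other way, with 398 ± 161 in postnatal muscles and 128 ± 70.3 in fetal muscles (SD, n = 6 and 9, log2 fold change 1.78, adjusted p = 2.3e-05). Its array name shares its first part with that of the THRA probe set. Whether either probe set also reads a transcript of the other gene was not tested.

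**Figure D1:**
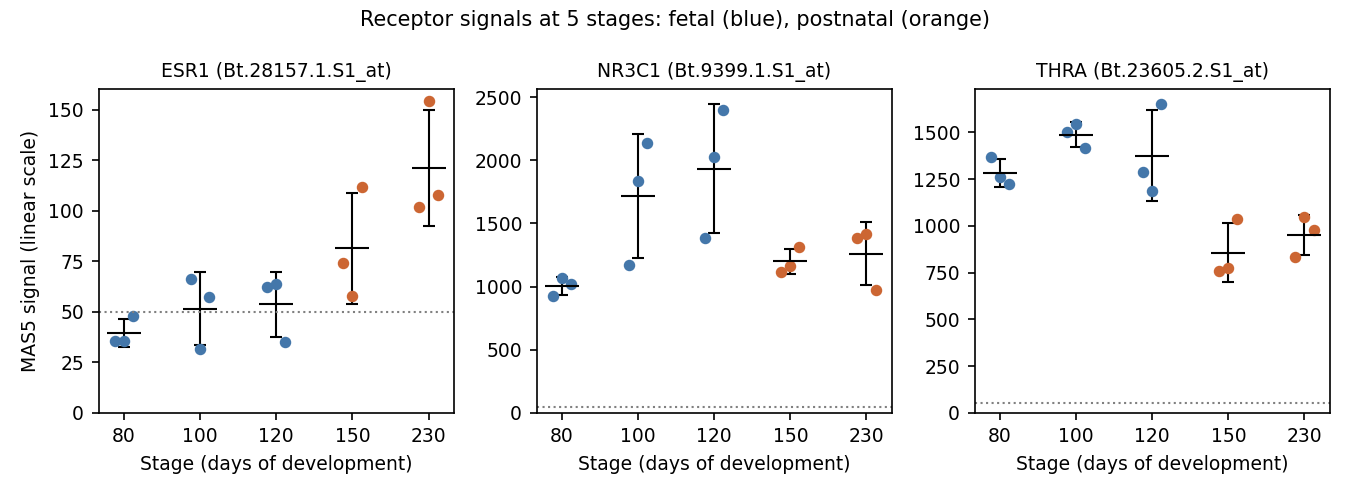
MAS5 signal (linear scale) of ESR1, NR3C1 and THRA against stage in days of development. Points are single arrays, bars the mean and SD of 3 animals, and the dotted line marks a signal of 50. ESR1 lies around 50 in the fetus and between 58.0 and 154.2 after birth, NR3C1 is highest at 100 d and 120 d, and every postnatal THRA value is under every fetal one.

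The glucocorticoid receptor NR3C1 binds cortisol, the hormone whose prenatal surge prepares the fetal sheep for birth. Its signal was 923.7, 1068.5 and 1020.8 at 80 d, 1174.0, 1835.8 and 2133.2 at 100 d, 1386.7, 2023.2 and 2394.9 at 120 d, 1119.1, 1165.2 and 1313.8 at 150 d, and 1384.9, 1419.1 and 972.0 at 230 d. All arrays of 100 d and of 120 d were above all arrays of 80 d, and all arrays of 120 d were above all newborn arrays, while the young lambs overlapped the newborns. Over all kept probe sets, 10.1% were likewise higher without overlap at 100 d than at 80 d, 12.5% at 120 d than at 80 d, and 22.9% were lower without overlap at 150 d than at 120 d. The 100 d and 120 d groups were also the most variable, with standard deviations of 491 and 510 around means of 1714 and 1935, against 73.8 to 249 around means of 1004, 1199 and 1259 at 80 d, 150 d and 230 d (n = 3 each).

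Over the fetal span, 120 d against 80 d, the log2 fold change of NR3C1 was 0.91 (standard error 0.26, 95% interval 0.35 to 1.48, unadjusted p = 0.0041, adjusted p = 0.076 by limma), a 1.88-fold difference that was not called. A fitted rise of 0.91 or more was found for 6.29% of all kept probe sets. From 120 d the newborn was lower by a similar amount (-0.66, standard error 0.26, unadjusted p = 0.026, adjusted p = 0.092). Postnatal against fetal gave -0.27 (95% interval -0.63 to 0.10, adjusted p = 0.21), so a change of up to 0.63 on this scale in the lower direction was within the interval. The value was -0.50 (adjusted p = 0.029) with the 100 brightest probe sets left out of the scaling and -0.54 (adjusted p = 0.055) without the 80 d stage, still not called.

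The summed signal of markers of endothelial cells, which line the blood vessels, moved with NR3C1 over the fetal stages and into the newborn. The summed signal of the 8 endothelial markers (PECAM1, VWF, CDH5, TEK, KDR, TIE1, CLDN5 and EMCN, all 8 kept) ranged from 3989 to 4457 at 80 d, from 5654 to 6719 at 100 d, from 6100 to 7094 at 120 d, from 2129 to 3871 at 150 d and from 3373 to 3532 at 230 d. On every array of 100 d and 120 d the sum was above all 80 d arrays, as NR3C1 was. On every postnatal array it was below all 80 d arrays, whereas all newborn NR3C1 signals were above those of 80 d. The sum rests most on PECAM1 and CDH5, which averaged 2901 ± 727 and 1156 ± 268 in fetal muscles (SD, n = 9). By limma, 4 of the 8 markers (50%) were called lower in postnatal against fetal, where 21.3% of all kept probe sets were. Among them was KDR, with both geometric means under 50. TEK, VWF, CLDN5 and EMCN were not called. In 100 d against 80 d and in 120 d against 80 d 0 of the 8 were called. The part of endothelial content in the NR3C1 values was not tested. In whole muscle, fewer cells of a type and less RNA per cell cannot be told apart. The actin control signal at the 3' end relative to that at the 5' end, a measure of RNA integrity, also moved with fetal age, with 1.89 ± 0.289 for the 80 d arrays, 1.53 ± 0.235 for those of 100 d and 1.03 ± 0.103 for those of 120 d (SD, n = 3 per stage). Its part was not tested either.

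**Figure D2:**
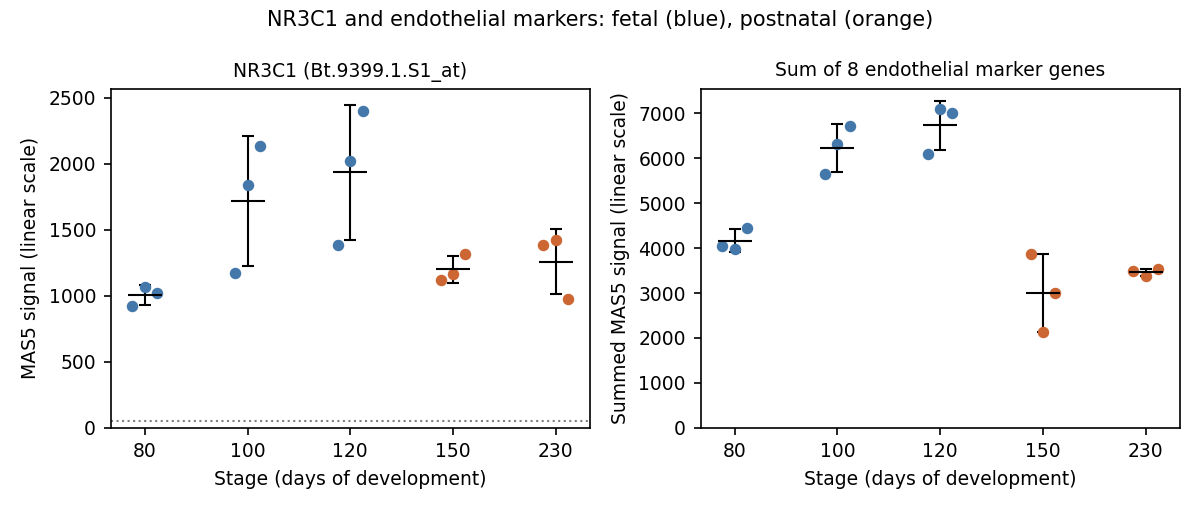
NR3C1 signal and the summed signal of 8 endothelial marker genes (both MAS5, linear scale) against stage in days of development, with single arrays as points and the mean and SD of 3 animals as bars. Both are highest at 100 d and 120 d, and the endothelial sum is lowest after birth, between 2129 and 3871.

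A second NR3C1 probe set ranged from 0.6 to 32.1 and never reached 50, so it gave no view of the receptor.

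PGR, the progesterone receptor gene, is a classical estrogen target in the reproductive tract. Its signal was 36.0, 29.6 and 28.7 at 80 d, 26.8, 37.8 and 22.2 at 100 d, 45.0, 39.2 and 33.2 at 120 d, 21.3, 21.0 and 46.1 at 150 d, and 66.2, 53.3 and 6.7 at 230 d. Only 2 of 15 arrays reached 50, both from young lambs, and the remaining lamb had the lowest value of all arrays. The probe set did not pass the filter. Without a filter its test over the 5 stages gave an adjusted p of 0.96 (limma).

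The insulin receptor INSR was read by 5 probe sets, which differ in the last part of their array names: A1_a, A1, S1_a and S1 come from 1 design sequence, with A and S for opposite strand orientation, and a further S1_a comes from a second design sequence. Probe sets of opposite orientation cannot all read the receptor's mRNA, and which of them do could not be settled here. They did not show a common course. The highest stage mean was at 230 d for A1_a (61.5 ± 22.8), at 150 d for S1_a (48.7 ± 39.5), at 120 d for S1 (51.3 ± 24.6) and the second S1_a (75.8 ± 57.2), and at 100 d for A1 (21.5 ± 9.97, SD, n = 3 each). The last of these ranged from 3.8 to 31.1 and was not kept. By geometric mean, the scale closer to the tests, S1_a was highest at 120 d (42.7) and lowest at 150 d (26.7). The second S1_a was then highest at 230 d (69.2). None of the 4 kept probe sets was called in postnatal against fetal (limma, adjusted p = 0.15 for A1_a, 0.66 for S1_a, 0.58 for S1 and 0.32 for the second S1_a). For S1_a and S1 both geometric means were under 50, so no fold is given. The second S1_a reached 50 on 10 arrays, the most of the 5, and had geometric means of 66.3 in postnatal and 49.1 in fetal muscles. Its fitted log2 fold change was 0.43 with an interval from -0.32 to 1.19. A small fall, no change and a rise of up to 1.19 on this scale were all within the interval.

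The S1 probe set had signals of 12.7, 12.6 and 15.1 at 80 d, 34.3, 18.7 and 76.5 at 100 d, 74.2, 54.4 and 25.2 at 120 d, 54.7, 18.2 and 20.2 at 150 d, and 25.7, 18.1 and 20.5 at 230 d. All later arrays lay above the 80 d arrays, but only 4 arrays reached 50, and the geometric means of 120 d (46.7) and 80 d (13.4) were both under it, so no fold is given. Over all kept probe sets, 10.1% were higher without overlap at 100 d than at 80 d and 12.5% at 120 d than at 80 d. The comparison of these stages was not called (adjusted p = 0.087, and 0.61 with signals under 50 set to 50). Over PGR, the second NR3C1 probe set and the 5 of INSR, 79 of 105 values (75.2%) were under 50, with a range of 0.6 to 140.1.

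**Figure D3:**
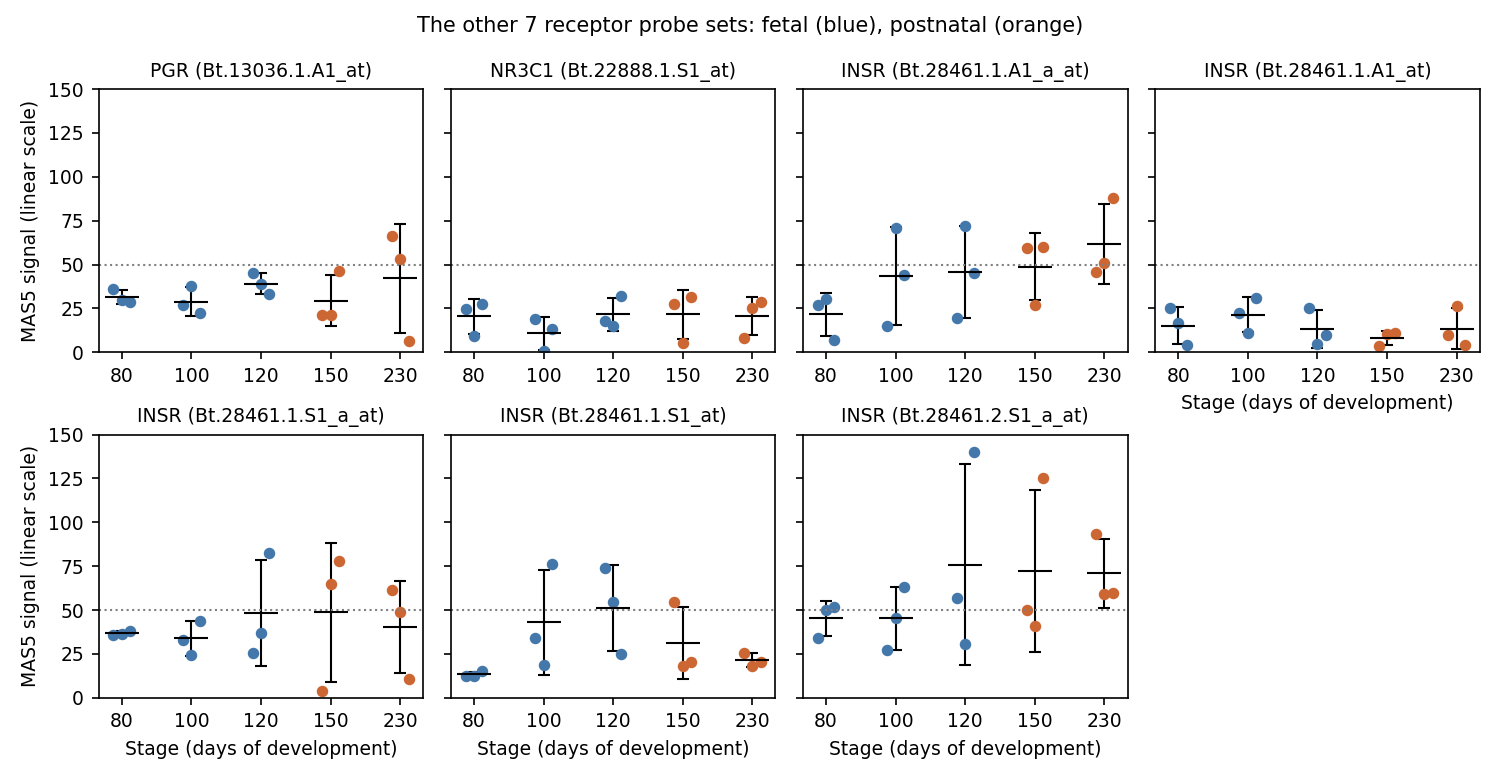
MAS5 signal (linear scale) of the other 7 receptor probe sets against stage in days of development, with single arrays as points and the mean and SD of 3 animals as bars. Most points, 79 of 105, lie under the dotted line at 50, and the INSR panels differ in where their highest mean falls.

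Counted over the 7 kept receptor probe sets, 2 (28.6%) were called in postnatal against fetal, where 34.5% of all kept probe sets were called (13.3% higher and 21.3% lower). By probe set the receptors' share was close to that of the whole array, but most of the 7 are annotated to INSR. With 1 probe set per gene, 2 of 4 kept genes were called (50%), a number too small to set against the array. In the moderated F-test over the 5 stages, 0 of the 7 were called, against 25.8% of all kept probe sets. An unadjusted p under 0.05 was reached by 4 of the 7 in that test and by 50.6% of all, and ESR1 (adjusted p = 0.013) and THRA (adjusted p = 0.012) lay just past the threshold. In 150 d against 120 d 0 were called, where 11.2% of all kept probe sets were (4.41% higher and 6.77% lower), and 2 had an unadjusted p under 0.05 (35.1% of all). The remaining comparisons also had 0 calls by limma. In 100 d against 80 d 0.125% of all probe sets were called, and 2 receptor probe sets had an unadjusted p under 0.05 (8.24% of all). In 120 d against 100 d 0.0563% were called and 0 receptor probe sets had such a p (7.44% of all), and in 230 d against 150 d 2.03% were called (0.944% higher) and 0 had one (22.8%). Over the fetal span, 120 d against 80 d, 1.31% were called (0.931% higher) and 2 had one (16.8%).

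**Figure D4:**
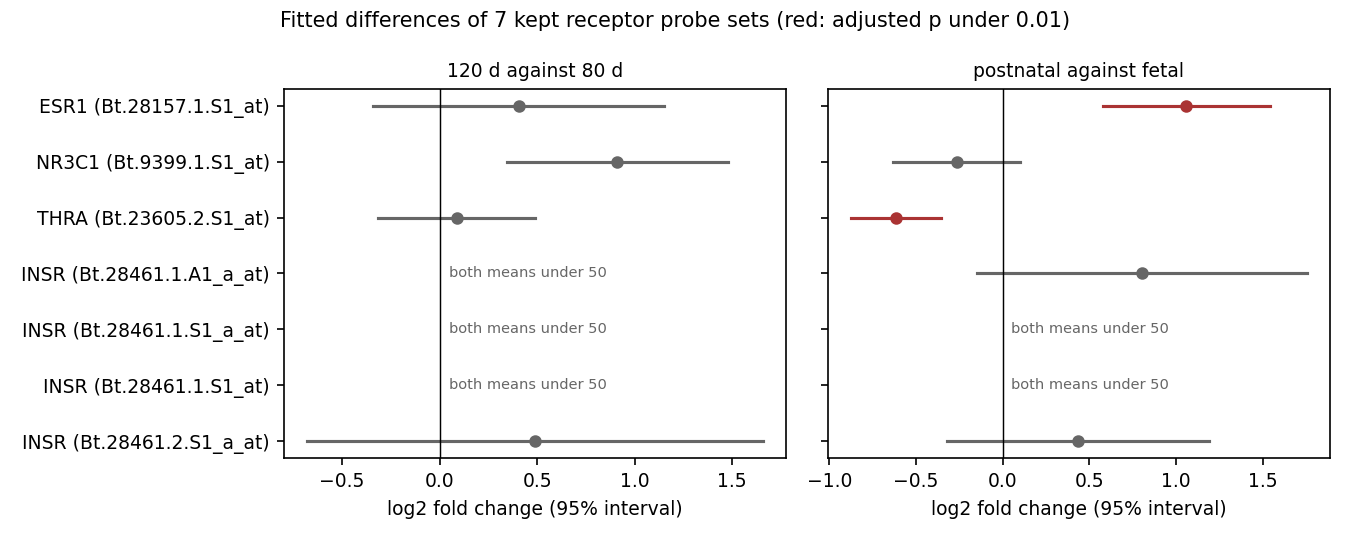
Fitted log2 fold change with its 95% interval for the 7 kept receptor probe sets, in 120 d against 80 d (left) and postnatal against fetal (right). Only ESR1 (1.06) and THRA (-0.62) in postnatal against fetal had an adjusted p under 0.01, and the intervals of INSR are the widest. No point is drawn for the INSR probe sets whose geometric means were both under 50.

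Arrays of 1 stage correlated at 0.891 to 0.948 (Pearson's r over log2 signals of kept probe sets), 50.7% to 58.1% of probe sets reached 50 on each array, and the median probe set moved by -0.13 on the log2 scale in postnatal against fetal. Myofibre markers, among them ACTA1 and CKM, were present on all arrays: 10 of the 12 were kept, and their summed signal was between 156891 and 311580 in postnatal muscles and between 79722 and 138334 in fetal muscles. Erythroid markers (5 of 9 kept) summed to between 183 and 607.5 in postnatal muscles and between 10945 and 24474 in fetal muscles. That sum is nearly all HBB (153 ± 121 postnatal and 14454 ± 4119 fetal, SD). Of the other 4, ALAS2 was lower, HBM and AHSP were not called, and HBA averaged 90.6 ± 44.1 and 90.1 ± 27.8. Both sums, and the endothelial sum (2129 to 3871 postnatal, 3989 to 7094 fetal), separated all postnatal from all fetal arrays, as THRA did, and their part in the ESR1 and THRA differences was not tested. The actin ratio given above for the fetal stages was 0.91 ± 0.052 at 150 d and 0.995 ± 0.054 at 230 d, so it was lower after birth than at 80 d and 100 d, and overlapped at 120 d. Its part in these differences was not tested either.

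The genes around the receptors were read from lists of their partners and targets, 1 probe set per gene, with calls again at an adjusted p under 0.01 by limma. The lists were chosen with earlier results of these data known, so their counts and shares are a description and not a test of the lists. The target lists do not separate genes that a hormone raises from genes that it lowers, so their counts do not measure hormone action. A gene dim in the fetus can also pass the filter through its postnatal arrays and be counted as higher. The counts in postnatal against fetal stand beside the 34.5% of all kept probe sets called there, 13.3% higher and 21.3% lower. For 150 d against 120 d that share was 11.2%, with 4.41% higher and 6.77% lower. It was 2.03% in 230 d against 150 d and 1.31% in 120 d against 80 d. Among other nuclear receptors, 18 of 39 were kept. In postnatal against fetal 2 were called higher and 3 lower (27.8%, median log2 fold change 0.22, against -0.13 over all probe sets), and 5 higher and 3 lower with quantile normalization. The RXR genes, whose products pair with THRA and which were picked after their values were seen, were not called: RXRA averaged 148 ± 85.9 and 120 ± 34.6, RXRB 150 ± 44.7 and 131 ± 23.0, and RXRG 493 ± 239 and 565 ± 112 in postnatal and fetal muscles (SD, n = 6 and 9, adjusted p = 0.54, 0.57 and 0.25). The orphan receptor NR4A1, an immediate early gene, was higher at 150 d than at 120 d (316 ± 95.9 and 105 ± 19.2, log2 fold change 1.56, adjusted p = 0.0034). NR2F1 (127 ± 26.1 at 150 d and 359 ± 87.0 at 120 d, -1.49, adjusted p = 0.0012) and NR2F2 (604 ± 99.3 and 1156 ± 89.4, -0.95, adjusted p = 0.0029), the COUP-TF repressors, were lower.

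Of the coregulators 15 of 29 were kept, and 2 (13.3%) were called higher and 7 (46.7%) lower in postnatal against fetal, with a median of -0.31. All kept probe sets also leaned to the lower side. NCOA1, a coactivator of steroid and thyroid receptors, averaged 924 ± 152 at 150 d and 2159 ± 69.4 at 120 d (log2 fold change -1.24, adjusted p = 0.00043). NCOA7 averaged 84.2 ± 5.09 and 190 ± 28.7 (-1.16, adjusted p = 0.0009), and the histone acetyltransferase CREBBP 1206 ± 144 and 2418 ± 367 (-1.001, adjusted p = 0.0022). The corepressor gene NCOR1 was lower as well in postnatal than in fetal muscles (496 ± 117 and 762 ± 73.7, -0.65, adjusted p = 0.0036), named after its values were seen.

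The chaperones of the steroid receptors were all kept (17 of 17), with 5 called higher and 2 lower in postnatal against fetal and a median of 0.42, but 4 higher and 4 lower with the 100 brightest probe sets left out of the scaling. In 150 d against 120 d 4 were called, all higher, and each is a cochaperone of HSP90: the immunophilin FKBP4 (1865 ± 260 at 150 d and 884 ± 256 at 120 d, log2 fold change 1.11, adjusted p = 0.005), PPP5C (495 ± 99.2 and 245 ± 14.5, 1.00, adjusted p = 0.0036), PPID (1198 ± 325 and 590 ± 41.0, 0.99, adjusted p = 0.0083) and AHSA1 (2410 ± 388 and 1282 ± 189, 0.91, adjusted p = 0.009). Those 4 calls were reduced to 2 with equal array medians or quantile normalization and to 0 with the scaling without the brightest probe sets. The HSP90 gene HSP90AB1 was among the lower ones in postnatal against fetal (2457 ± 879 and 3602 ± 819, -0.59, adjusted p = 0.0054, named after its values were seen). FKBP5, both a cochaperone and a glucocorticoid target, averaged 173 ± 81.8 in postnatal and 17.7 ± 10.4 in fetal muscles (named after its values were seen). Its fetal signals were under 50, so it passed the filter only through postnatal arrays, and its call is not taken as support. The postnatal geometric mean was 3.03 times a signal of 50.

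Genes for hormone activation and transport were often dim: 13 of 40 were kept, 4 called higher and 2 lower in postnatal against fetal (2 and 2 under that same scaling), with a median of 0.20. HSD11B1, the enzyme that regenerates active glucocorticoid inside cells, averaged 73.5 ± 34.7 and 37.5 ± 30.8 in postnatal and fetal muscles (adjusted p = 0.0081, named after its values were seen). Its fetal geometric mean was under 50 and its postnatal one was 1.34 times a signal of 50, so no exact fold is given. PGRMC1, a membrane protein first described as binding progesterone, was lower at 150 d than at 120 d (140 ± 8.18 and 271 ± 42.1, -0.94, adjusted p = 0.0093), a call lost with equal array medians and with quantile normalization.

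Known glucocorticoid targets, a list drawn up from several tissues, had 24 of 30 genes kept. In postnatal against fetal, 12 were called higher and 2 lower, with a median of 0.93. In 150 d against 120 d, PDK4, the kinase that shuts down pyruvate oxidation, averaged 4676 ± 3123 and 216 ± 36.4 (log2 fold change 4.19, adjusted p = 5.2e-05), and the transcription factor CEBPB 298 ± 42.3 and 94.8 ± 2.71 (1.64, adjusted p = 0.0026). The other 2 called genes were lower: the cell cycle inhibitor CDKN1C (2022 ± 459 and 6936 ± 1169, -1.79, adjusted p = 0.00027) and myostatin, MSTN, which restrains muscle growth (133 ± 48.2 and 442 ± 118, -1.78, adjusted p = 0.0059). In 230 d against 150 d 5 targets were called, all higher, where 0.944% of all kept probe sets were called higher. With equal array medians 3 were called higher and 1 lower there, and with quantile normalization 4 higher and 0 lower.

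Thyroid hormone targets had 15 of 26 genes kept, of which 10 were called higher and 1 lower in postnatal against fetal, with a median of 1.62. This count takes no account of whether the hormone raises or lowers each target. In 150 d against 120 d 8 were called, all higher (5 when scaled without the brightest probe sets). The mitochondrial carrier UCP3 averaged 1385 ± 126 at 150 d and 177 ± 52.0 at 120 d (log2 fold change 3.00, adjusted p = 0.00014), the malic enzyme ME1 272 ± 43.6 and 72.4 ± 8.68 (1.91, adjusted p = 0.0014), phospholamban, PLN, which restrains the calcium pump, 2231 ± 667 and 766 ± 186 (1.52, adjusted p = 0.0053), and the lactate exporter SLC16A3 831 ± 84.7 and 305 ± 88.3 (1.48, adjusted p = 0.00056). In 120 d against 80 d 5 were already called higher, where 0.931% of all kept probe sets were. The list includes myosin and calcium pump genes of the myofibre, and the myofibre marker sum, given above, was higher on all postnatal arrays. None of the listed targets is itself in the myofibre marker list, but this only reflects how the lists were drawn up. The part of the myofibre content in these counts was not tested. The 1 lower gene, MBP, named because it is the exception, codes for a myelin protein and is also in the nerve and Schwann cell marker list, whose sum was 313 to 598 in postnatal and 574 to 912.6 in fetal muscles.

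Estrogen and progesterone targets, many of them known from mammary cells, had 13 of 24 genes kept, with 2 called higher and 4 lower in postnatal against fetal and a median of -0.20. The small heat shock protein gene HSPB8 was higher at 150 d than at 120 d (7425 ± 614 and 3540 ± 1019, log2 fold change 1.11, adjusted p = 0.0028), and IGFBP4, which binds insulin-like growth factors, was lower (136 ± 32.4 and 262 ± 37.2, -0.97, adjusted p = 0.0091). With quantile normalization 0 of the list were called in that comparison. Of the 2 genes higher in postnatal against fetal, the second was FKBP5, which passed the filter only through postnatal arrays. FKBP5 also stands in the lists of chaperones and glucocorticoid targets. RARA, 1 of the 4 lower genes, also stands among the nuclear receptors.

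Of the insulin signalling genes 32 of 63 were kept, and 4 were called higher and 5 lower in postnatal against fetal, with a median of 0.01. Their share called, 28.1%, is under the 34.5% of all kept probe sets. The counts moved with the scaling, with 1 higher and 8 lower when the 100 brightest probe sets did not enter it and 7 and 7 with quantile normalization. The docking protein GAB1 averaged 197 ± 52.7 at 150 d and 1183 ± 479 at 120 d (log2 fold change -2.55, adjusted p = 0.00012), the only call of the list in that comparison. The ribosomal protein RPS6, a target of the pathway's S6 kinase, averaged 8694 ± 405 at 230 d and 17750 ± 379 at 150 d (-1.03, adjusted p = 0.0034). Of the vitamin D targets 6 of 16 were kept, with 1 called higher and 1 lower in postnatal against fetal, CA2 and SPP1, and a median of 0.19.

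**Figure D5:**
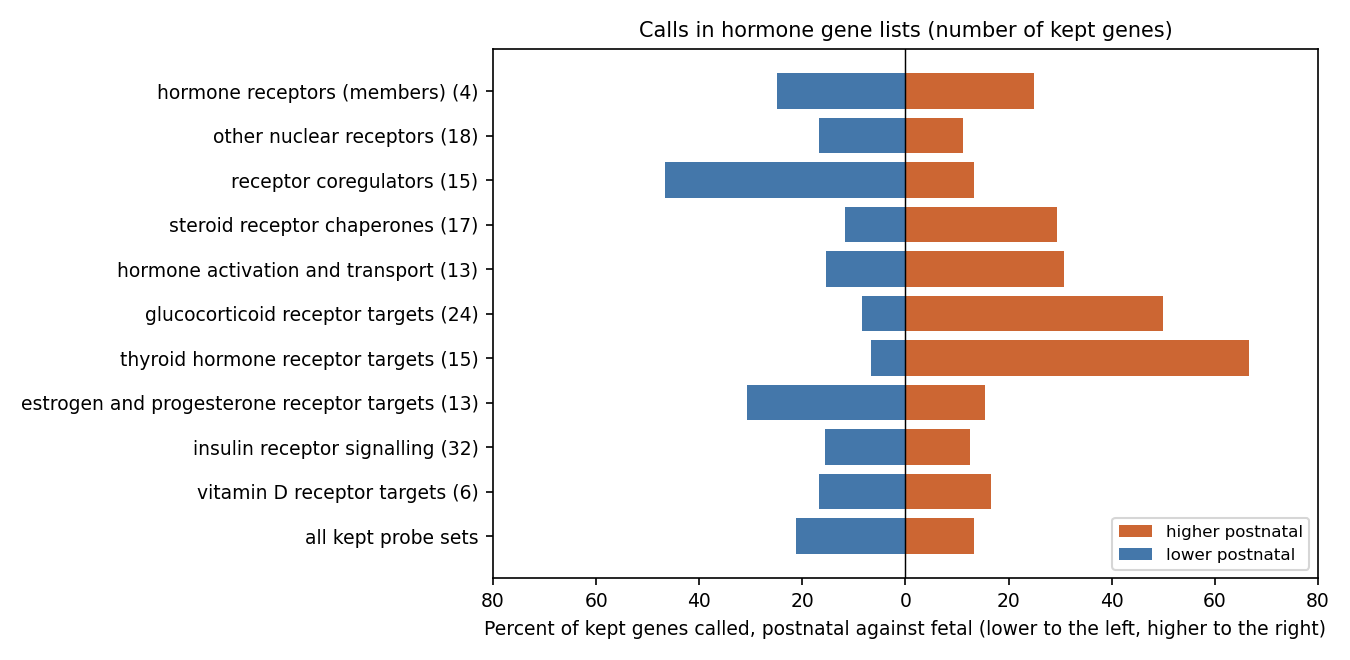
Percent of the kept genes of each list called lower (left of 0) and higher (right of 0) in postnatal against fetal, with all kept probe sets (21.3% lower, 13.3% higher) as the last row. Thyroid hormone targets (66.7%) and glucocorticoid targets (12 of 24 genes) have the highest shares of higher genes, and coregulators (46.7%) the highest share of lower ones. The lists were chosen with earlier results of these data known, and do not separate targets that a hormone raises from those that it lowers.

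The medians of the lists depend in part on how arrays are scaled. With the 100 brightest probe sets left out of the scaling, the medians in postnatal against fetal turned negative for other nuclear receptors (-0.02), hormone activation and transport (-0.03), vitamin D targets (-0.05) and insulin signalling (-0.23), and the median over all probe sets was then -0.36. Under that scaling the glucocorticoid targets had 10 called higher and 3 lower, and the thyroid hormone targets 10 and 1. The median of the chaperones was 0.18 there. With quantile normalization the median was 0.55 for the glucocorticoid targets, 1.05 for the thyroid hormone targets and -0.48 for the coregulators.

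No receptor passed the F-test, so the genes with the most similar course, measured as Pearson's r over the log2 signals of 15 arrays, are given for ESR1, THRA and NR3C1 only, a choice made after their values were seen. The correlations are across arrays that share the stages, and are given with no test. The closest genes to ESR1 were SCHIP1 (0.905), MB, which codes for the oxygen store myoglobin (0.899), and UPP1, a uridine phosphorylase (0.895). The closest to THRA were SEL1L, of protein quality control in the endoplasmic reticulum (0.928), LRIG3 (0.926) and the calcium channel gene PKD2 (0.921). The closest to NR3C1 were TEK, the endothelial angiopoietin receptor and 1 of the 8 endothelial markers (0.85), the endothelial adhesion receptor ADGRL4 (0.826) and the urea cycle gene ASL (0.819). TEK averaged 315, 567, 678, 253 and 412 over the 5 stages in order of age, and MB 410, 755, 1212, 7506 and 22446.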

How the data were processed

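Transcripts of the longissimus dorsi of 15 sheep were read on Affymetrix bovine genome arrays. The intensities deposited by the authors are MAS5 signals on a linear scale, background corrected, combined over perfect match and mismatch probes and scaled to a common mean per array, and the 2% trimmed mean was 200.1 on every array. No MAS5 version is given in the sources used here. Stages were taken from the labels. After removal of the 112 controls, 15998 of 24016 probe sets (66.6%) reached 50 on at least 3 arrays and were kept, and log2 was taken after signals under 0.1 (2 values) were set to 0.1. The platform annotation named 1 gene for 13292 of the 24016, several for 86 and none for 10638, and 8492 of the 9155 symbols were found in the sheep gene table.

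The tests used limma 3.58.1 under R 4.3.3 (lmFit, contrasts and eBayes on all 15 arrays, plus a moderated F-test), with Benjamini-Hochberg adjustment over all kept probe sets and a threshold of 0.01. Postnatal against fetal is the mean of the 2 postnatal stage means against that of the 3 fetal ones. The procedure was tested on simulated data. For the lists, each gene was represented by its brightest kept probe set (mean log2 signal), and up to 4 genes per list were named, those called with the largest change, 150 d against 120 d first, then 230 d against 150 d. Further names (NR1D1, the RXR genes, NCOR1, HSP90AB1, FKBP5, HSD11B1, MBP, RARA, CA2, SPP1 and the erythroid genes) were chosen after their values were seen. Every receptor probe set is reported. The members and lists were chosen with earlier results of these data known. Alternatives were other filters, floors, offsets, scalings, limma options and thresholds, leaving out each array, and the replicate number as a block.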

Additional observations from a re-analysis of the deposited data

How the results depend on the processing

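No fold change of ESR1, THRA, NR3C1 or INSR listed for these checks reversed its direction under any alternative. In postnatal against fetal, 2 receptor probe sets were called, and leaving out each array in turn gave 2 to 2. With 3 alternatives chosen after seeing the data the count was 1: without the 80 d stage (THRA), with 150 d alone against the fetal stages (THRA) and with 230 d alone (ESR1). Over 28 alternatives the log2 fold change ran from 0.76 to 1.36 for ESR1 (adjusted p = 0.00037 to 0.05) and from -0.85 to -0.54 for THRA (adjusted p = 6.3e-05 to 0.013).

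In the F-test over the 5 stages, 0 receptor probe sets were called as reported. The count was 2 (ESR1 and THRA) with the stricter filter, with signals under 50 set to 50, with an offset of 16, with quantile normalization and at a threshold of 0.05, and 1 with equal array medians (ESR1), with scaling without the 100 brightest probe sets (THRA) and with the trend and robust options of limma (THRA). Leaving out single arrays gave 0 to 1, the 1 being THRA without 150 d replicate 3. In 150 d against 120 d the count of 0 became 1 (THRA) with signals under 50 set to 50, without the 100 brightest probe sets, with the trend and robust options and at 0.05, and leaving out single arrays gave 0 to 0. The other 4 comparisons had a count of 0 throughout. The cause of these shifts was not tested.

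Scaling mattered for all probe sets: postnatal against fetal had 2121 higher and 3400 lower calls, but 1481 and 4919 without the 100 brightest. The count over all probe sets in 150 d against 120 d, 1789, was 1185, 1168 and 885 without 120 d replicates 1, 2 and 3 and 1123 without 150 d replicate 2, and fell to 1110 with no filter and to 2 with only the 6 arrays of that interval. Leaving out single arrays gave 0.85% to 1.63% in 230 d against 150 d (lowest without 150 d replicate 2), 0.613% to 1.48% in 120 d against 80 d (lowest without 120 d replicate 2), 0 to 9 calls in 120 d against 100 d (0 without 120 d replicate 1 or 3) and 8 to 18 in 100 d against 80 d.

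Stages share replicate numbers in the labels, but the animals differ. Same-numbered arrays correlated at -0.053 to 0.207 (median 0.035) after stage means were removed, with 6 of 30 pairs over 0.1. Arrays of different number correlated at -0.196 to 0.118 (median -0.018), with 3 of 60 pairs over 0.1. The numbers were not taken as pairs because the animals differ. Whether arrays of the same number share anything else was not tested. With the replicate block, 2 receptor probe sets were called in postnatal against fetal and 0 in the F-test, so no call changed. With 3 arrays per stage, and most PGR and INSR signals under 50, small changes of these receptors could not be detected.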
